A study of Mus musculus with 2 samples.

Results

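Long intergenic noncoding RNA (lincRNA) regions were represented on the array by 16251 probes of 60 bases, out of 55681 probes that were not controls. A probe was counted among them when its name carried the prefix of the array's lincRNA content or when the file named it by a genomic interval with a strand letter, F for forward or R for reverse. An interval was the name of 16181 of these probes, and the other 70 carried an RNA name such as XIST or lincP21 or an interval written differently. The probes lay in 3555 regions with a median length of 7328 bases and a median of 3 probes. Only the forward strand was probed in 1257 regions, only the reverse strand in 1231, and both strands in 1067. The class set beside them was 26429 probes of named genes, those whose accession was a curated messenger RNA entry.

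The RNA came from bone marrow LSK cells, sorted as Lineage-Sca-1+c-Kit+, the fraction that holds blood stem cells and early progenitors. The donors' cells carried Tet2KD/KD and Ezh2delta/delta alleles on the C57BL/6 strain and had given rise to a myelodysplastic syndrome (MDS), a clonal disorder of blood formation, which was carried on in secondary recipient mice. Cells were taken 10 weeks into the transplant, 7 weeks past the treatment with DAC or with PBS, and each treatment has 1 array. DAC is decitabine, a cytidine analogue that traps DNA methyltransferases and lowers DNA methylation, and PBS is the saline vehicle. Both arrays share the genotype, so neither the mutations nor a normal LSK sample can be compared here. The dose, the number of mice behind each array and whether recipient cells were gated out are not stated in the labels. With 1 array per group there was no replicate and no test, and every difference below compares these arrays, not the conditions. Readings marked "with DAC" and "with PBS" are those of the one array of each.

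LincRNAs are transcripts that are spliced and often polyadenylated like messenger RNAs but have no long open reading frame. Some act in the nucleus on chromatin, as Xist does in silencing an X chromosome, or build nuclear bodies, as Neat1 does for paraspeckles. Others, like lincRNA-p21, are induced by p53. Many of the regions on this array are domains marked by the chromatin of active genes rather than defined transcripts, so a probe reports on a stretch of a region and not on a known exon.

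Sequences are shown first for the probes on which the results turn, 5′ to 3′, with mm9 positions. The first set is 2 of the 3 probes of Malat1, which the array calls NEAT2, a reverse-strand RNA on chromosome 19, and 4 of the 5 probes of lincP21, a reverse-strand RNA on chromosome 17. Capitals mark CG, the dinucleotide at which mammalian DNA is methylated.
A_30_P01019221 (NEAT2, chr19:5795713-5795772): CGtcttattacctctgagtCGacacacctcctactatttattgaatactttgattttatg
A_30_P01020325 (NEAT2, chr19:5795773-5795832): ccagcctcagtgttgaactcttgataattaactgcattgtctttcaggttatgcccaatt
A_30_P01021484 (lincP21, chr17:29194593-29194652): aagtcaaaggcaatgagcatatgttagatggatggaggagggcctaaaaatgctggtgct
A_30_P01023928 (lincP21, chr17:29194741-29194800): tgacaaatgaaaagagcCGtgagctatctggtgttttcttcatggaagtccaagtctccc
A_30_P01023403 (lincP21, chr17:29195041-29195100): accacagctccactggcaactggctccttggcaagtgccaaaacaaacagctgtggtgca
A_30_P01027688 (lincP21, chr17:29195101-29195160): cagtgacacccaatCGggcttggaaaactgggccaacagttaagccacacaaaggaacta

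A second set shows how the array reads both strands of a region. Each pair is a forward and a reverse probe laid over the same bases, and capitals mark the bases that the probe shares, as the exact reverse complement, with its partner. The pairs come from chr16:21794415-21815365, chr9:100977450-100989325 and chr1:88339354-88345004, and they were picked after their values had been seen.
A_30_P01020932 (F, chr16:21805385-21805444): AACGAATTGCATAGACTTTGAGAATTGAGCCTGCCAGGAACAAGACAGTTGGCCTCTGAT
A_30_P01023948 (R, chr16:21805385-21805444): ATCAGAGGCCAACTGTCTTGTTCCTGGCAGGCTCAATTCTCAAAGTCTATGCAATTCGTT
A_30_P01027171 (F, chr9:100980929-100980988): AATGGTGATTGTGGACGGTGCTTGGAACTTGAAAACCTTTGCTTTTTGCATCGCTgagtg
A_30_P01026522 (R, chr9:100980924-100980983): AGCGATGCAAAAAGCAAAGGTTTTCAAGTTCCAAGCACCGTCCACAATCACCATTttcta
A_30_P01017816 (F, chr1:88340036-88340095): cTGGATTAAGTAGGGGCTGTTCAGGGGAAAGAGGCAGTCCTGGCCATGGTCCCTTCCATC
A_30_P01033572 (R, chr1:88340037-88340096): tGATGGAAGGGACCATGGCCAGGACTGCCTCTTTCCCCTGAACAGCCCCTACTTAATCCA

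The third set comes from chr17:74580316-74599991, whose forward probes gave the lowest mean difference among region strands with 3 or more measured probes, all past 2-fold. Capitals again mark CG.
A_30_P01025203 (F, chr17:74599393-74599452): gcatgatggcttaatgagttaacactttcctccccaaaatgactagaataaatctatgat
A_30_P01021766 (F, chr17:74599471-74599530): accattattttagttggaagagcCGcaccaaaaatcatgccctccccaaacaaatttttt
A_30_P01027387 (F, chr17:74599531-74599590): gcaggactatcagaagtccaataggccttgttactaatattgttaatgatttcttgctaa
A_30_P01023610 (F, chr17:74599664-74599723): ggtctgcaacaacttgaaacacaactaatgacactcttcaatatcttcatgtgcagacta
A_30_P01026791 (F, chr17:74599672-74599731): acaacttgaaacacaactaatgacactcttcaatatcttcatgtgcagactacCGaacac
The last 2 of these probes overlap, so they do not give separate readings.

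Lower shares of the region probes than of the gene probes were well above background, the scanner's call for a spot clearly brighter than its surroundings. With DAC, 8315 region probes passed, 51.2%, against 63.6% of the probes of named genes. With PBS, 6717 passed, 41.3%, against 55.7%. Both arrays measured 6152 region probes (37.9%) and neither measured 7371 (45.4%). The DAC array alone measured 2163 (13.3%) and the PBS array alone 565 (3.48%); for named genes these shares were 10.2% and 2.33%. The excess on the DAC array was thus present in both classes, and over all probes 56.8% and 48.5% passed. Its cause was not tested.

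Median processed intensity of the region probes was 27.1 with DAC and 14.5 with PBS, against 69.0 and 35.5 for named genes. The lowest intensity called well above background was 22.5 and 20.3, so the median region probe lay close to that limit with DAC and under it with PBS. After scaling, where a log2 signal of 0 is the array's 75th percentile over the 25404 probes measured on both arrays, the medians were -4.91 and -5.41 for region probes and -3.56 and -4.12 for named genes. Levels of different probes depend on their sequence and do not rank transcripts.

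Per region, 2665 of the 3555 (74.96%) had at least 1 probe well above background with DAC and 2402 (67.6%) with PBS. Every probe of the region passed in 878 regions (24.7%) and 643 regions (18.1%). The other regions with a reading were read by some of their probes only.

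Detection rose with the G + C content of the probe. Region probes under 35% G + C were well above background in 35.1% with DAC and 28.7% with PBS, and those of 60% or more in 93.4% and 89.9%. Named genes ran from 54.4% and 48.5% to 97.3% and 94.6% over the same bands. Region probes had the higher median G + C content, 45% against 41.7%, and still the lower share in each of the 7 bands on both arrays. In the band from 35 to 40%, 37.9% of region probes and 57.7% of gene probes passed on the DAC array, while at 60% or more the gap was small. The number of CG dinucleotides in the probe went the same way: 46.3% and 36.3% passed with none and 73.4% and 66.5% with 3 or more, against 59.9% and 52.3%, then 71.2% and 62.5%, for named genes. CG and G + C content move together, and their parts were not separated.

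The hexamer AATAAA, the polyadenylation signal, was found on the probe strand in 3.92% of region probes and 13.2% of probes of named genes. Its reverse complement TTTATT was found in 3.03% and 4.27%. The gene probes held the signal mostly in its sense orientation, and the region probes held both orientations at similar shares. Region probes with AATAAA were well above background in 46.3% on the DAC array and those without in 51.4%. A match is a description of the letters and not a site.

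Both strands gave nearly the same picture. Of 8199 forward probes 51.8% were well above background with DAC and 41.7% with PBS, and of 8052 reverse probes 50.5% and 41.0%. Among forward probes measured on both arrays the median difference, DAC minus PBS on the log2 scale, was 0.07, and among reverse probes 0.10.

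By chromosome, the share well above background on the DAC array ran from 42.9% on chromosome 10 to 60.8% on chromosome 17. It lay above the PBS share on 20 of 20 chromosomes, for region probes and for named genes. The order of chromosomes differed between the classes: for named genes chromosome X had the lowest share, 53.6%, and chromosome 15 the highest, 70.0%, where region probes gave 43.0%.

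The median difference of the 6152 measured region probes was 0.08, with a standard deviation over probes of 0.85. For named genes the values were 0.07 and 0.86, and over all 25404 measured probes the median was 0.04. At 2-fold or more, 694 region probes (11.3%) were higher with DAC, where 11.5% of all measured probes and 13.1% of those of named genes were. On the lower side there were 477 (7.75%), against 7.13% of all and 7.07% of named genes. At 4-fold, 147 were higher (2.39%, against 2.27% of all and 2.55% of named genes) and 106 lower (1.72%, against 1.25% and 1.03%). The remaining 4981 region probes (81.0%) stayed within 2-fold. The 2-fold shares lie close to those of all probes, so the counts as such say nothing particular about the region probes. The balance moved with scaling and background subtraction: 59.3% of the region probes past 2-fold were higher on the DAC array, but 42.9% when the percentile was taken over all probes, 45.8% with median centring, 38.3% with quantile normalization, 47.5% with loess and 46.1% with normexp background correction. With normexp the counts themselves fell to 212 higher and 248 lower. In the order of those settings the median lay at -0.12, -0.08, -0.14, -0.01 and -0.09, and the median of all measured probes moved by -0.20, -0.16, -0.13, -0.04 and -0.11.

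Differences were widest in the middle of the signal range. The region probes were divided at the quartiles of mean signal into signal ranges 1 (dimmest) to 4 (brightest). From range 1 to 4 the median difference was 0.08, 0.22, 0.16 and -0.12, and the share at least 2-fold higher was 8.39%, 18.6%, 14.1% and 4.03%. For named genes in the same signal ranges the medians were 0.09, 0.29, 0.20 and -0.04. No region probe was printed more than once. The 193 other probes that were printed 10 times and measured gave the spot-to-spot error of a log2 difference, with a median standard deviation of 0.40, 0.23, 0.14 and 0.09 in the same ranges. A 2-fold difference therefore exceeds the printing error even in the dimmest range, but that error covers neither animals nor sorting, extraction or amplification.

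Chromosomes 16 and 15 had the most uneven counts. On chromosome 16, 39 of 199 measured region probes (19.6%) were at least 2-fold higher and 10 (5.03%) lower, while named genes there gave 10.0% and 6.24%. Those 39 probes lay in 14 of the chromosome's 66 measured regions, and 22 of them in 3 regions, so they are far from 39 separate readings. Under the other background and scaling settings 21 to 33 were higher and 4 to 15 lower. On chromosome 15, 7 of 215 region probes (3.26%) were higher and 18 (8.37%) lower, against 14.5% and 6.43% of the gene probes. The median difference over chromosomes ran from -0.07 on chromosome X to 0.18 on chromosome 14 and lay above 0 on 17 of 20. With the percentile over all probes every difference moves by -0.20, which is more than the highest of these medians. The count above 0 therefore depends on the scaling.

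Neighbouring probes of a region tended to differ together. Over 3223 pairs of consecutive measured probes of a region and strand, the correlation between their differences was 0.44 and 67.0% had the same sign. It was 0.74 over the 822 pairs that started at most 60 bases apart and 0.33 over the 2401 that started farther apart. Consecutive probes of a named gene gave 0.26 over 2134 pairs. These correlations are across probes of the same 2 arrays, which share scaling and depth.

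Probes on opposite strands moved together as well. There were 730 pairs of a forward and a reverse probe that overlapped by 50 bases or more, so that each is nearly the reverse complement of the other. On the DAC array both probes were well above background in 320 pairs, neither in 262, the forward probe alone in 67 and the reverse probe alone in 81, which makes 79.7% with the same call. On the PBS array it was 77.5%, with both in 241 pairs and neither in 325. Where both arrays measured both probes, 224 pairs, the differences correlated at 0.74, had the same sign in 79.9% and lay a median of 0.29 apart. At 2-fold, 14 pairs had both probes higher, 16 both lower and 1 had its probes in opposite directions. The closest probes on opposite strands that started 120 bases or more apart correlated at 0.31 over 214 pairs, with 67.8% of the same sign and 63.1% and 61.2% of the same call. Same-strand probes that overlapped by 50 bases or more, the other end of the scale, correlated at 0.97 over 43 pairs.

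Complementary probes have the same base composition, and the part of composition in the shared calls was not tested. Within pairs of 40 to 50% G + C, the same call was given in 79.1% with DAC and 73.8% with PBS, and the differences correlated at 0.69 over 93 pairs. In signal range 4 they correlated at 0.90 over 63 pairs, and in range 1 at 0.54 over 30. The strand letter of a region probe is given below as a label of the probe, not as the strand that was transcribed.

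In the region chr9:100977450-100989325, 16.5 kb from a probe of Msl2, a subunit of a histone acetyltransferase complex, all 9 probes were measured. The pair printed above read 2045 with DAC and 239.5 with PBS on the forward strand, and 1555 and 185.9 on the reverse strand, log2 differences of 2.70 and 2.67. Apart from 1, its probes lie nearly end to end on each strand, and 7 of them were past 2-fold on the DAC side, with 0.93 for the exception. The remaining probe, at chr9:100978810-100978869, read 732.7 and 653.0, a difference of -0.23. The probe of Msl2 itself was higher by 1.20.

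The opposite direction was seen in chr1:88339354-88345004, 14.7 kb from a probe of Tex44. The printed forward probe read 166.7 with DAC and 845.5 with PBS and its reverse partner 146.9 and 759.2, differences of -2.74 and -2.77. The adjoining pair gave -2.74 and -2.76. The last forward and reverse probes of the region, next to these, gave 0.16 and -0.29, so the difference covered 4 of the region's 6 probes, and the Tex44 probe gave 0.51.

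Region strands with at least 3 measured probes, all past 2-fold in the same direction, numbered 9 on the higher and 9 on the lower side, out of 833 with at least 3 measured probes. That is 1.08% on each side. Named genes were not counted by this rule, so whether these counts are particular to the region probes was not tested. Here the probes of a region strand repeat a reading within the same 2 arrays and are not replicates of a condition. Consecutive probes that started at most 60 bases apart had differences correlated at 0.74, so close probes are not separate readings. Under normexp background correction 3 and 4 region strands met the same rule.

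The highest mean among them was that of chr16:21794415-21815365, 32.4 kb from a probe of Ehhadh, an enzyme of peroxisomal fatty acid oxidation that was not well above background on either array. Its forward probes read 511.5, 313.1, 277.3 and 277.1 with DAC and 63.2, 45, 34.6 and 35.1 with PBS. The mean difference was 2.55, or 1.51 with normexp. The fifth forward probe passed the background call with DAC alone. On the reverse strand 5 probes gave a mean of 2.05, among them the complementary probe printed above, which read 524.2 and 47.4.

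A region at chr11:119250824-119286324, 8.55 kb from a probe of the anion transporter gene Slc26a11, gave means of 1.93 on the forward and 2.15 on the reverse strand over 3 probes each. The Slc26a11 probe differed by 1.16. At chr16:89961600-89971725, 173.5 kb from the nearest named-gene probe (Tiam1), the means were 1.85 over 3 forward and 2.14 over 4 reverse probes; these probes overlap one another.

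Close to Rbm26, an RNA-binding protein gene on the reverse strand, the reverse probes of 2 regions were higher on the DAC array. At chr14:105497388-105511063 3 probes read 102.8, 128.4 and 575.3 with DAC and 28.2, 27.0 and 78.7 with PBS, with a mean difference of 1.93. The second region, chr14:105508625-105513462, overlaps the first and gave 1.64, and the probe of Rbm26 gave 2.03. On the forward strand of the first region 4 of 5 probes were lower, at -3.27, -3.10, -1.58 and -1.57, and the fifth gave 0.57. Among the 647 regions with both strands measured, strand means had the same sign in 412 (63.7%) and opposite signs in 235. Both strands were 2-fold higher in 16, both 2-fold lower in 8, and past 2-fold in opposite directions in 2.

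The lowest mean among these region strands was that of chr17:74580316-74599991, whose 5 measured forward probes are printed above. They read 77.9, 307.2, 75.2, 59.3 and 64.7 with DAC and 558.8, 1888, 401.2, 262.5 and 294.1 with PBS. Each probe was lower on the DAC array, at -3.24, -3.02, -2.81, -2.54 and -2.58, with a mean of -2.84, and with normexp of -2.18. The probe on the reverse strand gave -1.86. The region ends 0.055 kb from a probe of Memo1, a gene on the reverse strand, and that probe gave -0.38.

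Others on the lower side included chr17:33368400-33393525 (mean of 5 forward probes -1.53), inside which a reverse-strand probe of the zinc finger gene Zfp955a gave -0.98. At chr16:3337275-3355950 the mean of 3 forward probes was -2.11, and at chr19:29546348-29596479, 0.816 kb from a probe of Pdcd1lg2, an immune checkpoint ligand gene, the mean of 3 reverse probes was -1.48. The forward probes of chr14:78214602-78226287 gave -1.17 on the strand opposite to Dnajc15, a mitochondrial co-chaperone gene, whose own probe gave -1.06. There the forward probe A_30_P01033168 is the reverse complement of the gene probe over 51 bases, and it gave -1.20.

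Of the 12 regions that carry an RNA name, Malat1 gave the most uniform reading among those with 3 or more measured probes. Its probes read 408.6, 923.0 and 1450 with DAC and 701.4, 1715 and 2261 with PBS. All 3 were lower on the DAC array, at -1.18, -1.29 and -1.04, and stayed lower under each of the 7 other background and scaling settings, although 1 probe of the 3 fell short of 2-fold in 4 of them. A probe filed under the Malat1 gene has the same 60 bases as the first of them and read 392.8 and 726.5, a difference of -1.28, which repeats that probe's -1.18 from another spot of the same arrays.

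Tug1, a lincRNA first known from developing retina, was read by 5 probes on both arrays. Their differences ran from 0.18 to 0.77 with a mean of 0.45, all within 2-fold; with the percentile over all probes the lowest turned to -0.03. The 3 probes of the Tug1 gene, 1 of which shares 32 bases with a region probe, gave 0.23, -0.60 and -1.35, so probes of this RNA disagreed.

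The regions named NEAT1, the paraspeckle RNA, and KCNQ1ot1, the antisense RNA that silences imprinted genes around Kcnq1, had 5 probes each measured on both arrays. The KCNQ1ot1 probes lie on the forward strand, whereas the files place the probes of the Kcnq1ot1 gene on the reverse strand. The NEAT1 probes gave -1.59, 1.27, 0.71, 0.29 and 0.50, and the KCNQ1ot1 probes -2.47, 0.43, -0.23, -0.95 and -0.92. With standard deviations over probes of 1.08 and 1.08, no single value describes either set of probes. A probe of the Neat1 gene gave 0.86, and 1 of the Kcnq1ot1 gene, measured on both arrays, -0.12. Another probe of the Kcnq1ot1 gene read 97.7 with DAC and 23.0 with PBS and passed the background call with DAC alone. NRON, a cytoplasmic repressor of the transcription factor NFAT, had 3 measured probes of 5, at -1.50, -0.26 and 0.75.

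H19 and lincP21 were read mainly on the DAC array. H19, an imprinted RNA with high levels in the embryo, read 38.9, 38.8, 33.8, 56.7 and 93.5 on the DAC array, all well above background, and 5.87, 6.95, 22.4, 34.9 and 7.56 on the PBS array, where only the fourth was. The bounds for the other 4, taken against the lowest intensity called well above background, were at least 1.46-fold, 1.45-fold, 1.15-fold and 3.50-fold higher on the DAC array. With normexp these 4 gave log2 differences of 0.13, 0.16, -0.15 and 0.76, and none reached its bound. The H19 probe measured on both arrays gave a difference of 0.30, which turned to -0.09 with normexp. Of the probes of the H19 gene 1 read 36.7 and 4.71, below the background call with PBS, and the other 46.9 and 62.5, a difference of -0.81, so the H19 probes disagreed in direction.

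LincP21, a p53 target next to Cdkn1a, showed the same pattern. Its probes read 146.9, 31.6, 85.8, 44.5 and 31.9 on the DAC array, all well above background, and 23.7, 4.42, 4.04, 42.9 and 8.83 on the PBS array, where only the fourth passed. The bounds were at least 4.70-fold, 1.18-fold, 3.21-fold and 1.20-fold higher, and the probe measured on both arrays gave -0.34. With normexp the probes read with DAC alone gave log2 differences of 0.82, 0.18, 0.96 and -0.04, short of these bounds. Of all region probes 13.3% were read with DAC alone.

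XIST was read by 1 of 5 probes on each array, and not by the same one. One probe read 4.72 with DAC and 126.2 with PBS, at least 7.39-fold lower with DAC, and another 38.8 and 4.49, at least 1.45-fold higher. With normexp they gave log2 differences of -1.77 and 0.42, short of these bounds. The remaining 3 did not pass on either array. A probe filed under the Xist gene read 49.5 with DAC and 4.90 with PBS, above the background call with DAC alone, and another passed on neither array. TSIX, its antisense RNA, HOTAIR, from the Hoxc cluster, and PINC, an RNA of the mammary gland, did not pass the background call with any of 5 probes on either array. BRN1-A passed with 1 of 4 probes on the DAC array and with none on the PBS array.

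The 6 brightest measured region probes read 115871 to 145559 with DAC and 93222 to 147605 with PBS, and none was past 2-fold. A_30_P01025541, A_30_P01031375, A_30_P01023587, A_30_P01019201 and A_30_P01021796 gave -0.42, -0.27, -0.48, -0.40 and -0.43, and A_30_P01018010 gave 0.21. The first is the reverse complement of a probe of Rps15a over 27 bases and the fifth that of a probe of Rpl13a over 44 bases, both genes of ribosomal proteins. The last comes from the region described next, by its position. The array places a probe of the Rn18s gene, for 18S ribosomal RNA, at chr17:39985058-39985117, inside the region chr17:39960567-39992817. Around it, 5 regions held 20 region probes, 10 on each strand, and all 20 were measured. The reverse probes lie within chr17:39980297-39981446 and the forward probes within chr17:39982106-39985688, so the strands were not read over the same bases. The 20 probes read 3163 to 141879 with DAC and 2070 to 93222 with PBS. Differences ran from -0.06 to 0.92 with a median of 0.32, none past 2-fold, and 19 of 20 were above 0; with the percentile over all probes 16 were, and with loess 20. The Rn18s probe gave -0.20.

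At chr11:22681800-22707775 probes of both strands matched Rps16, a protein of the small ribosomal subunit. The reverse probe A_30_P01026458 shares 45 bases in a row with a probe of Rps16 and the forward probe A_30_P01025488 is its reverse complement over 47 bases. The first read 9367 with DAC and 9221 with PBS, the second 23811 and 26574, and the gene probe 14040.4 and 13713.5. Their differences were -0.37, -0.55 and -0.36. At chrX:34360500-34388500 the forward probe A_30_P01024823, which is the reverse complement of an Rpl39 probe over 54 bases, read 47042.5 and 53158, a difference of -0.57 beside -0.41 for the gene probe. Both the sense and the antisense match of a ribosomal protein gene were thus bright on both arrays.

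In all, 163 region probes shared 25 bases or more in a row with a probe of a gene in the same orientation and 106 others as the reverse complement. In the same orientation 53 had all 60 bases in common; over the 22 such pairs measured on both arrays the differences correlated at 0.98 and lay a median of 0.17 apart, which is the repeatability of 1 sequence at separate spots. The first were well above background in 62.0% and 50.9% (DAC, then PBS), and the reverse complements in 84.9% and 77.4%. Among the reverse complements 90 region probes and 90 of their gene probes passed with DAC. Over the 79 such pairs measured on both arrays 88.6% had the same sign and the correlation of differences was 0.65; in the same orientation it was 0.90 over 67 pairs with 91.0% of the same sign. The other 15982 region probes, without such a match, were well above background in 50.8% and 41.0%, so these matches do not set the shares of the class.

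The largest single differences among the brighter measured region probes were as follows. The highest was A_30_P01027754, on the reverse strand of chr14:65431652-65437902, 4.13 kb from a probe of the homeobox gene Hmbox1, which read 650.9 with DAC and 31.9 with PBS, a difference of 3.95. The other 3 measured probes of that strand gave 2.17, 0.81 and 1.07. Inside it, at chr14:65433420-65434061, A_30_P01019885 gave 3.25. The adjoining A_30_P01018326 read 947 with DAC and was not well above background with PBS. It was at least 35.5-fold higher, the largest bound on that side, but with normexp its log2 difference was 3.28, short of that bound. The 3 probes fall within chr14:65431676-65433540.

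The other 8 of the 10 highest ran from 2.79 to 3.27. They included A_30_P01022812 near Rcor3, a corepressor gene whose own probe gave 1.72, with 3.27. Another was A_30_P01020686 near Zbtb20, a transcription factor gene whose own probe gave -0.51, with 2.84. Companions on the same strand often fell short: near Rcor3 they gave -0.26 and 1.83, and near Zbtb20 7 others ran from -0.35 to 1.77. The forward probe A_30_P01029473 of chr6:31017987-31174287 gave 2.95 while its companions gave -0.03 and 0.09.

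The lowest was A_30_P01033523, on the reverse strand of chr9:88581073-88614403, which read 39.0 with DAC and 403.9 with PBS, a difference of -3.77, with no other measured probe on its strand; a probe of Mthfsl inside the region gave 1.09. A_30_P01020272, at chr15:33980641-33981135, followed with -3.68, and its companion gave -4.30. Among the 10 lowest, 4 lay in chr17:74580316-74599991 or chr14:105497388-105511063, described above. None of the named differences past 2-fold changed sign under the 7 other background and scaling settings.

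On the PBS array alone, the largest bounds were those of A_30_P01024510 near Gpbp1, at least 20.9-fold lower with DAC, A_30_P01025461 (19.6-fold), A_30_P01033396 near Rev3l (19.2-fold) and A_30_P01017652 (18.9-fold). With normexp their log2 differences were -2.65, -2.77, -2.70 and -2.61, short of these bounds. On the DAC array alone, A_30_P01029682, in a region 0.986 kb from a probe of Rbmx, an RNA-binding protein gene that itself gave 1.39, was at least 30.4-fold higher, and A_30_P01024874, near Cdyl2, at least 21.9-fold. With normexp A_30_P01029682 gave 3.08 and A_30_P01024874 gave 2.63 on the log2 scale, again short of the bounds. Of the 2163 region probes measured on the DAC array alone 778 had a bound of 2-fold or more, and of the 565 on the PBS array alone 314 did. For probes of named genes it was 1235 of 2704 and 330 of 617, so these counts are not particular to the region probes.

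Region probes near genes were read more often. A named-gene probe lay inside 158 regions (4.44%), and 2141 others had one within 50 kb. Region probes with a gene probe of the same strand inside their region were well above background in 72.6% with DAC and 58.8% with PBS, and with one on the other strand only in 72.8% and 61.8%. The shares were 53.0% and 41.9% with the closest gene probe within 50 kb, and 43.5% and 36.7% farther away. Differences of region probes and of the closest gene probe correlated at 0.06 across pairs within 50 kb (2758 pairs, 615 gene probes), at 0.10 inside on the same strand and at 0.24 inside on the other strand, where 63.9% of 238 pairs had the same sign. Where both were past 2-fold, 90 pairs went the same way and 34 opposite ways within 50 kb, 9 and 8 inside on the same strand, and 13 and 4 inside on the other. Pairs that share a gene probe are not separate readings.

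Among 34 regulators of blood formation, 9 had a region within 100 kb, with 91 probes in 23 regions, of which 56.0% were well above background with DAC and 35.2% with PBS. Of these probes 30 were measured with both treatments: 6 were higher by 2-fold or more, 3 were lower, and 21 lay between, where 11.5% of all measured probes were higher and 7.13% lower. All 6 that were higher lay near Mecom, which encodes the stem-cell transcription factor Evi1: 12 of 35 probes in 8 regions were measured, 6 higher and 1 lower, with a median of 1.05, and the gene's own probe gave 0.71. The 6 lie in 2 of those regions, 4 of them end to end or on the same bases, so they are not separate readings. With normexp only A_30_P01030704 and A_30_P01018556 stayed past 2-fold, at 1.60 and 1.29, and the other 4 gave 0.39 to 0.74. In chr3:30032959-30079659 the reverse probe A_30_P01030704 read 566.05 and 101.1 (2.09), and the complementary probes A_30_P01019731 and A_30_P01032304 gave 1.78 and 1.59. In chr3:30099759-30133959, A_30_P01018556 gave 2.57 while A_30_P01030140 on the same strand gave -1.36.

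Near the other regulators the counts were small. Of 4 probes measured near Myc 1 was 2-fold lower, A_30_P01021758 with -1.90, while the Myc probe gave 0.19. Near Cd34, a progenitor surface protein gene, A_30_P01033095 gave -1.04, and the Cd34 probe -0.30. The 2 measured near Gata1, the erythroid and megakaryocyte factor, had a median of 0.22 where the Gata1 probe gave -2.02. Near Junb 5 were measured, none past 2-fold, with a median of 0.39.

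As a check of the sort, the 7 LSK markers Kit, Ly6a, Cd34, Flt3, Mpo, Procr and Cd48 were well above background on both arrays. Of 10 markers of lineage-positive cells 7 were read with DAC and 6 with PBS; Itgam (CD11b), which marks cells the gate should leave out, was among them on both, and Cd8a and Ms4a1 were on neither. Of 5 monocyte and macrophage markers 5 were read with DAC and 2 with PBS, and of 6 endothelial and stromal markers 3 and 4. The monocyte and macrophage set was thus read more fully on the DAC array, as were probes at large. The endothelial and stromal set was mixed: by the brightest probe Pecam1 was higher with DAC by 2.95, while Fn1 gave -1.03 and Cxcl12 -1.42. The part of these sets in the differences of region probes was not tested. In bulk RNA, fewer cells of a type and less RNA per cell cannot be told apart.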

How the data were processed

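Total RNA was amplified and labelled with Cy3 as cRNA (Low Input Quick Amp kit, per the labels' protocols) and hybridised to Agilent arrays, 1 for DAC and 1 for PBS, read by Agilent Feature Extraction 10.7.3.1 with probe positions on mm9, per the file headers. The deposited intensity is the scanner software's background-subtracted processed signal, not normalized between arrays. The deposited series matrix holds log2 values of the same arrays; its difference between columns had a slope of 1.00 and an offset of -0.20 against the scaled one, and its baseline stays unknown.

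From the files, spots marked as outliers were left out (55680 probes kept), log2 intensity was averaged per probe, and each array was scaled so that the 75th percentile became 0, taken over the 25404 probes (45.6%) that passed the background call on both. No mm9 genome was used; sequences and positions are the files' own, and 16133 of the 16251 region probes had a position. Gene names came from the files and a GRCm38.p6 table, which matched 25927 of 26429 accessions. The well-above-background calls are the scanner's deposited calls. A difference measured on 1 array only is a lower bound: the signal there against the higher of the probe's own signal and the lowest signal well above background on the other array. Each bound holds for the main background and scaling setting alone, and none of those printed here was reached with normexp.

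Named probes were, among measured region probes at or above the median signal, the 10 highest and 10 lowest differences and the 6 brightest, then the 4 largest bounds on each array, the 3 regions with the largest same-sign difference on both strands, and up to 10 probes past 2-fold within 100 kb of listed regulators. Region strands with several probes, complementary pairs, matches to gene probes and the ribosomal RNA region were chosen after their values were seen. The members and lists were chosen with earlier results of these data known. Counting was tested on simulated data. Python 3.11.15, pandas 2.3.3, numpy 2.4.6 and limma 3.58.1 (R 4.3.3; normexp with offset 50, quantile, loess) were used. P-values and standard errors over replicates cannot be given with 1 array per group. Some probes and genes are not reported here.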

Additional observations from a re-analysis of the deposited data

How the results depend on the processing

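No paired analysis was possible because each group has 1 array. Each setting below changed 1 choice, and the cause of each change was not tested except where the setting itself changes which probes enter. The share of region probes read with DAC and with PBS was 77.8% and 69.3% with the scanner's looser call (positive and significant) and 73.5% and 66.4% with the brightest probe per interval and strand; for named genes it was 81.5% and 75.6% with the looser call and 59.9% and 52.0% over all probes with a gene symbol. Median log2 signal of region probes, DAC then PBS, was -3.22 and -3.08 with normexp, -3.21 and -3.06 without background subtraction, -2.96 and -3.26 with the percentile over all probes, -5.16 and -5.16 with quantile normalization, -3.20 and -3.54 with median centring, -3.98 and -4.40 with the looser call and -3.49 and -3.71 with 1 probe per interval and strand. Their median difference was -0.085 with normexp, -0.084 without subtraction, -0.12 with the percentile over all probes, -0.077 with median centring, -0.14 with quantile normalization and -0.12 in the series matrix; for named genes it was -0.13 with the percentile over all probes, -0.085 with median centring and -0.13 in the series matrix.

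Past 2-fold, higher and lower with DAC, there were 212 and 248 region probes with normexp, 206 and 248 without subtraction, 453 and 731 with quantile normalization, 1725 and 1169 with the looser call, 3169 and 1494 without a filter, 134 and 134 at or above the median signal, and 255 and 207 with 1 probe per interval and strand. Region strands with all of 3 or more probes past 2-fold, a count chosen after seeing the data, numbered 3 higher and 4 lower with normexp and without subtraction, and 35 and 21 with the looser call. On the lower side they were 17 with the percentile over all probes, 15 with median centring, 15 with quantile normalization and 17 in the series matrix. The share of complementary pairs with the same sign, also chosen after seeing the data, lay between 74.1% and 80.0% over the other settings run. None of the differences past 2-fold among the 35 named probes changed sign under the 7 other background and scaling settings, though 196 of the 245 values moved by more than the spot-to-spot error. What limits the readings is signal over background: 45.4% of region probes passed on neither array, and with 1 array per group nothing here separates DAC from the array it was read on.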

Other observations

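Long noncoding RNAs outside the region probes were read from a list of 49 known by name. Of these, 32 had a probe of their own outside the regions and 22 had one measured on both arrays. By the brightest measured probe of each gene, 1 was at least 2-fold higher with DAC, 2 were lower and 19 lay between, with a median of -0.10. Over all measured probes 11.5% were higher and 7.13% lower by that much, so these small counts say nothing particular about the listed RNAs.

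Norad, which binds Pumilio proteins and guards chromosome stability, gave 1.28, 1.12, 0.29 and -0.70 over 4 probes. Peg13, an imprinted RNA, read 572.9 with DAC and 215.7 with PBS, a difference of 1.01. Pvt1, next to Myc, gave -1.55 and -0.14 over its probes measured on both arrays, and Dleu2, host of miR-15a and miR-16-1, 0.28 and -1.53. The growth-arrest RNA Gas5 was bright on both arrays, with 0.11, 0.51 and 0.02, and so was Rmrp, the RNA of a ribonuclease complex, at -0.87. Airn, the antisense RNA of the imprinted Igf2r gene, passed the background call on the DAC array alone with 3 of 5 probes and on both arrays with 1, at -0.23. Ftx, a regulator of Xist, passed with 1 of its probes on the DAC array alone. Probes of the same RNA disagreed for Norad, Pvt1 and Dleu2, as they did for NEAT1 among the region probes. The region probes named KCNQ1ot1 also disagreed among themselves, but lie on the strand opposite to the probes of the Kcnq1ot1 gene.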
